A study of Mus musculus with 10 samples.

Results

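The deubiquitinase gene Usp53, its paralog Usp54 and Tjp1, which encodes the tight junction scaffold ZO-1, were described in cultured adipose stem and precursor cells (ASPCs) of the mouse. They are 3 of the 25229 gene rows of the count table, picked by symbol, and all 3 were among the 14251 genes that passed the filter on low counts. Usp53 was picked because its transcript differed between FICZ and DMSO in these same libraries, with a low adjusted p in some of the fits, so its difference between the groups is given as a description and supports nothing. Usp54 was picked as its paralog and Tjp1 as a binding partner of its protein, with earlier results of these data known.

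ASPCs were sorted as CD45-CD31-Pdgfra+ cells from the stromovascular fraction of perigonadal white adipose tissue (gWAT) of WT mice, and were grown to confluence without a passage. They then received 100 nM FICZ, a ligand of the aryl hydrocarbon receptor (AHR), or DMSO, its vehicle, for 6 hr before lysis. There were 5 DMSO and 5 FICZ libraries, numbered 1 to 5 in each group, and the labels give no age or sex. Nothing says that the libraries came from separate animals or cultures, so a p measures the spread between these libraries, which may be technical. Total counts were between 38328611 and 50210111 in DMSO and between 40272024 and 47670865 in FICZ. The 10 ASPC markers were all present, from Pi16 with 228 to 431 counts to Pdgfra with 45683 to 69213 and Col3a1 with 142352 to 287852, with a summed level of 10375 to 15160 CPM in DMSO and 10167 to 13718 CPM in FICZ. CPM here is the count scaled to a common library total and by the library's TMM factor. Markers of other cells were uneven. Among 8 endothelial markers Pecam1 had 22 to 79 counts and Tek 2202 to 3816, among 8 immune markers Cd3e had 0 to 4, Ptprc 7 to 83 and Csf1r 424 to 725, and among 9 mesothelial or epithelial markers in the table Epcam had 0 to 13, Krt8 195 to 1297 and Wt1 2422 to 3977. Transcripts of 14 hepatocyte genes were counted in every library, with a summed level of 1326 to 8839 CPM in DMSO against 1301 to 1962 CPM in FICZ, and DMSO replicate 5 was the highest. In bulk RNA, fewer cells of a type and less RNA per cell cannot be told apart.

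Ubiquitin-specific proteases (USPs) remove ubiquitin from other proteins. USP53 and USP54 are close relatives within this family, were long held to lack activity, and act on ubiquitin chains linked through lysine 63 (K63). USP53 locates to tight junctions, where it binds ZO-1, and its loss is linked to deafness in mice and to cholestasis in humans. ZO-1 ties the membrane proteins of tight junctions, such as occludin and the claudins, to the actin cytoskeleton, and is also found at adherens junctions of cells without tight junctions, including fibroblasts. AHR, once bound by a ligand such as FICZ, acts as a transcription factor at DNA that holds the core letters GCGTG.

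In the GENCODE annotation of GRCm38, Usp53 (ENSMUSG00000039701.11) lies on the minus strand of chromosome 3 at 122931493 to 122984510, a span of 53.0 kb with 10 transcripts. No base of its exons is shared with another gene, and 0.171% of the 50-base words in its transcripts occur in transcripts of other genes. Usp54 (ENSMUSG00000034235.17) lies on the minus strand of chromosome 14 at 20548912 to 20641063, a span of 92.2 kb with 5 transcripts. Of its exonic bases, 635 are overlapped by 1810062O18Rik and 2810402E24Rik on the opposite strand, and 3.90% of its words are shared with them. Because the strand setting of the count is not given in the sources used here, reads of Usp54 and of these 2 genes cannot be told apart within that overlap. Tjp1 (ENSMUSG00000030516.14) lies on the minus strand of chromosome 7 at 65296165 to 65527781, a span of 231.6 kb with 7 transcripts, and shares no exonic base and no 50-base word with another gene. No 50-base word is shared between Usp53 and Usp54.

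The promoter windows of Tjp1 and Usp54 are shown because the AHR core letters can be looked for in them, 250 bases before the start site and 50 after. They are RefSeq sequences of GRCm38.p6, both on the minus strand, at chr7:65371195-65371494 for Tjp1 and chr14:20618305-20618604 for Usp54, and both lie inside the annotated span of the gene, at a start site downstream of the first. Of the 3 genes, 2 were matched to a promoter entry, and Usp53 had no entry. Capitals mark GCGTG, searched on both strands.
Tjp1: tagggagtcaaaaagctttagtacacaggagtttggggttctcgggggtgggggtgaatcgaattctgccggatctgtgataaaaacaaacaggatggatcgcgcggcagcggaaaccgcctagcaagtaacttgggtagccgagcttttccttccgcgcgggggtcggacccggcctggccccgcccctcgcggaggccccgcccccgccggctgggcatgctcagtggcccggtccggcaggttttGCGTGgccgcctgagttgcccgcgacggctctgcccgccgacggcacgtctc
Usp54: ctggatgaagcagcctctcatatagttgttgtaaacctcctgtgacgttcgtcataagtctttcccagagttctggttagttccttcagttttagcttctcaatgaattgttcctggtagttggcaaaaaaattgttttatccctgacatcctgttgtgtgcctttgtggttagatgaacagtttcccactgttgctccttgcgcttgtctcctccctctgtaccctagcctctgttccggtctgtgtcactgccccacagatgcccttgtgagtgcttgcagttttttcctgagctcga
The Tjp1 window holds GCGTG 1 time, starting 2 bases before the start site, and its GC content is 65.3%. The same letters also complete the longer form TNGCGTG. The Usp54 window holds no GCGTG on either strand, and its GC content is 46.7%. Of 32851 promoter windows of this length, 10639 (32.4%) hold GCGTG and 1664 (5.07%) hold TNGCGTG, the longer form being counted within the shorter. A match is a description of these letters and not of binding.

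Usp53 had 707, 1262, 1040, 1004 and 892 counts in DMSO replicates 1 to 5, and 1398, 2095, 1472, 1603 and 1508 counts in FICZ replicates 1 to 5. Scaled to the library these were 18.5, 25.4, 23.8, 23.1 and 18.3 CPM in DMSO against 32.7, 44.4, 37.1, 36.9 and 34.8 CPM in FICZ. Every FICZ library lay above every DMSO library, and in both groups replicate 2 was the highest. Over all genes tested, 0.351% had every FICZ library above every DMSO library, and since Usp53 was picked on this contrast nothing is read from that share. The mean level was 21.8 ± 3.21 CPM under DMSO and 37.2 ± 4.41 CPM under FICZ (± SD of 5 libraries here and throughout), a ratio of 1.70.

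Within same-numbered pairs, FICZ over DMSO for Usp53 was 1.76-fold, 1.75-fold, 1.56-fold, 1.60-fold and 1.90-fold in pairs 1 to 5. The smallest of these differences was 0.64 on the log2 scale, and 10 of the 14251 genes, Usp53 included, had a smallest pair difference at least that large. The fitted log2 difference of Usp53, FICZ minus DMSO, was 0.77 with an SE of 0.12 and a 95% interval of 0.51 to 1.03, as the quasi-likelihood fit of edgeR gave it. Its adjusted p (Benjamini-Hochberg over all genes tested) was 0.115 in that fit, where 3 genes (0.0211%) passed 0.05. A fit that took the replicate number as a block left the log2 difference at 0.77, with an SE of 0.07, edgeR adjusted p was then 0.0267, with 8 genes (0.0561%) past the threshold. By DESeq2 without a block its adjusted p was 3.33e-05, and 16 of the 18940 genes with an adjusted p there (0.0845%) passed. These are the values by which Usp53 was picked. For size, the log2 differences of known AHR targets in the same fit were 3.25 (Cyp1a1), 1.66 (Ahrr), 0.91 (Tiparp) and 0.62 (Cyp1b1).

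The level of Usp53 was set beside the hepatocyte transcripts, which differ between the libraries. Its log2 difference was 0.71 without DMSO replicate 5, and 0.66 with the log2 CPM of Alb, the albumin gene, as a covariate in the edgeR fit. DMSO replicate 5 had the lowest Usp53 level of all 10 libraries, and DMSO replicate 1, with the next lowest, was the second highest in Alb at 1921 CPM. The part of these transcripts in the Usp53 values was not tested beyond those fits.

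**Figure D1:**
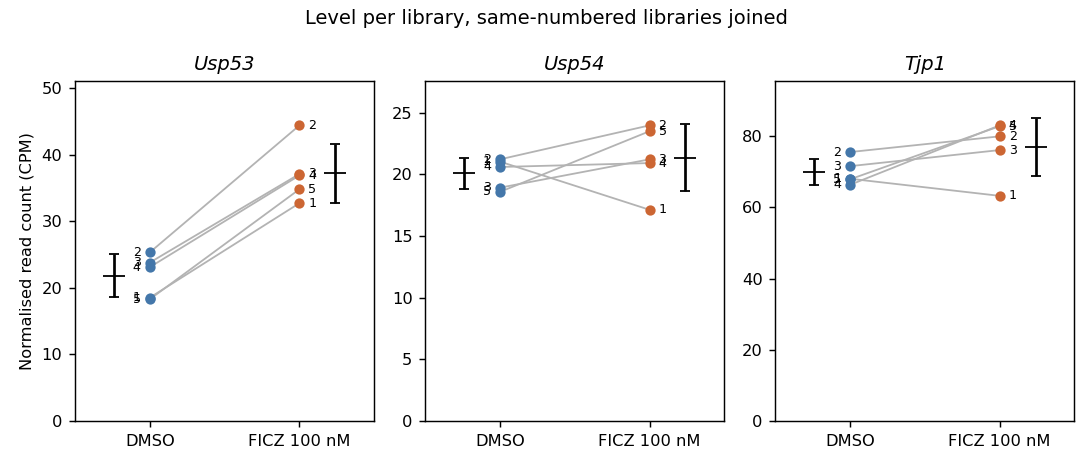
Levels of Usp53, Usp54 and Tjp1 in CPM (TMM-scaled, axis from 0) in each of the 5 DMSO and 5 FICZ libraries. Points are libraries, thin lines join libraries with the same replicate number, and bars give the mean ± SD. The Usp53 libraries do not overlap between the groups (18.3 to 25.4 against 32.7 to 44.4 CPM), while those of Usp54 and Tjp1 do.

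Usp54 had 802, 1056, 826, 894 and 905 counts in DMSO replicates 1 to 5 and 731, 1130, 841, 908 and 1017 counts in FICZ replicates 1 to 5. These were 21.03, 21.2, 18.9, 20.6 and 18.6 CPM in DMSO and 17.1, 24.0, 21.2, 20.9 and 23.5 CPM in FICZ. The groups overlapped, and FICZ replicate 1 was the lowest of the 10 libraries. The mean was 20.1 ± 1.23 CPM in DMSO and 21.3 ± 2.72 CPM in FICZ, with FICZ the higher in 4 of the 5 pairs. The log2 difference of Usp54 was 0.09 (SE 0.10, 95% interval -0.13 to 0.31), with an adjusted p of 0.999 by edgeR and 0.963 with the replicate block. An exact two-sided permutation test of its log2 CPM over the 252 arrangements, which did not use the replicate numbers, gave p = 0.357. The interval reaches from 0.915-fold to 1.24-fold, and these libraries do not tell differences within those bounds apart. No smallest detectable difference was computed.

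Tjp1 had 2596, 3762, 3127, 2881 and 3309 counts in DMSO replicates 1 to 5 and 2701, 3771, 3018, 3607 and 3586 counts in FICZ replicates 1 to 5. These were 68.1, 75.6, 71.6, 66.4 and 67.9 CPM in DMSO and 63.3, 80.0, 76.1, 83.1 and 82.9 CPM in FICZ. The groups overlapped because FICZ replicate 1 was again the lowest library, and the other FICZ libraries lay above every DMSO library. The mean was 69.9 ± 3.70 CPM in DMSO and 77.1 ± 8.21 CPM in FICZ, with FICZ the higher in 4 of the 5 pairs. The log2 difference of Tjp1 was 0.14 (SE 0.09, 95% interval -0.05 to 0.33), with an adjusted p of 0.999 by edgeR and 0.929 with the replicate block. The exact two-sided permutation test, again without the replicate numbers, gave p = 0.135. The interval runs from 0.968-fold to 1.26-fold.

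Within a library the counts of the 3 genes can be set against each other without any scaling. There were 0.882, 1.20, 1.26, 1.12 and 0.986 counts of Usp53 for each count of Usp54 in DMSO replicates 1 to 5, and 1.91, 1.85, 1.75, 1.77 and 1.48 in FICZ replicates 1 to 5. The ratio was 1.09 ± 0.154 in DMSO and 1.75 ± 0.165 in FICZ, and the groups did not overlap. Usp53 over Tjp1 was 0.312 ± 0.0377 in DMSO (0.270 to 0.348) and 0.485 ± 0.0544 in FICZ (0.421 to 0.556), again without overlap. Usp54 over Tjp1 was 0.288 ± 0.0210 in DMSO and 0.277 ± 0.0176 in FICZ, and the groups overlapped. The ratios that hold Usp53 carry the difference it was picked for and are descriptions.

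Per length of exon, Tjp1 was the highest of the 3 genes in all 10 libraries. Its level was 8.95 ± 0.474 RPKM, the CPM divided by the gene's exon length in kilobases, in DMSO and 9.87 ± 1.05 RPKM in FICZ. Usp54 was at 2.21 ± 0.136 RPKM in DMSO and 2.35 ± 0.300 RPKM in FICZ. Usp53 was at 1.74 ± 0.256 RPKM in DMSO and 2.96 ± 0.351 RPKM in FICZ. Usp54 thus stood above Usp53 in the 5 DMSO libraries and below it in the 5 FICZ libraries. That order in DMSO depends on the length used, since the exons of all Usp53 transcripts together span 12572 bases and its longest transcript 6185. Over the longest transcript Usp53 was at 3.53 ± 0.519 RPKM and Usp54 at 3.05 ± 0.187 RPKM in DMSO, with Usp53 the higher in replicates 2 to 5, and at 6.02 ± 0.714 and 3.24 ± 0.413 RPKM in FICZ. Among 51 USP genes ranked by RPKM, Usp53 was at place 40 in DMSO and 38 in FICZ and Usp54 at 38 and 39. Over the longest transcript Usp53 was at place 38 in DMSO and 32 in FICZ and Usp54 at place 40 in both. By exon length both were below the family's median of 4.85 RPKM in DMSO and 5.45 RPKM in FICZ.

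The rest of the USP family was read against the same fit. Of 49 listed genes other than Usp53 and Usp54, 43 were tested, and 0 passed at an adjusted p of 0.05 or at an unadjusted p of 0.05 by edgeR, where 4.82% of all genes tested were at an unadjusted p of 0.05. DESeq2 gave 0 at both. It was run without the filter on low counts, and 4.89% of the 19292 genes to which it gave a p were at an unadjusted 0.05. In edgeR with the replicate block 2 were at an unadjusted p of 0.05, where the share over all genes was 4.65%. Without DMSO replicate 5 there were 2 by edgeR (Usp18 and Usp46), and the share over all genes was not taken for that fit. The median log2 difference of the list was 0.08, against 0.01 over all genes tested, and 38 means were higher and 5 lower in FICZ. That median was 0.02 with Alb as a covariate, and 0.05 without DMSO replicate 1 or without DMSO replicate 5. The log2 differences ran from -0.17 for Usp2 to 1.14 for Usp18. That of Usp53 was second among the 45 USP genes tested. The genes of this list outside the naming rule, Usp2, Usp12, Usp18, Usp33 and Usp46, were chosen after their values were seen.

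Usp18, which removes the ubiquitin-like modifier ISG15, had the larger log2 difference, 1.14 with an SE of 0.53 and an edgeR adjusted p of 0.999. Its levels were 3.07, 6.07, 4.01, 10.4 and 10.8 CPM in DMSO replicates 1 to 5 and 31.8, 4.01, 21.1, 10.96 and 7.74 CPM in FICZ replicates 1 to 5. Usp18 overlapped widely between the groups and was higher with FICZ in 3 of 5 pairs. The SE of Usp53 was 0.12. Apart from Usp53, Usp33 was the USP gene with every FICZ library above every DMSO library, as were 0.351% of all genes tested. Usp33 was at 61.0 ± 1.72 CPM in DMSO against 65.7 ± 1.47 CPM in FICZ. Its log2 difference was 0.11, with an edgeR adjusted p of 0.999.

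The 4 USP genes with the highest level per length were Usp5, Usp1, Usp39 and Usp8. Usp5, which takes apart free ubiquitin chains, was at 223 ± 37.2 CPM in DMSO and 235 ± 11.01 CPM in FICZ. Usp1, which acts on monoubiquitinated DNA repair proteins, was at 122 ± 13.2 and 131 ± 6.40 CPM. The log2 differences of the 4 were 0.08, 0.10, 0.01 and 0.13, each with an edgeR adjusted p of 0.999.

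**Figure D2:**
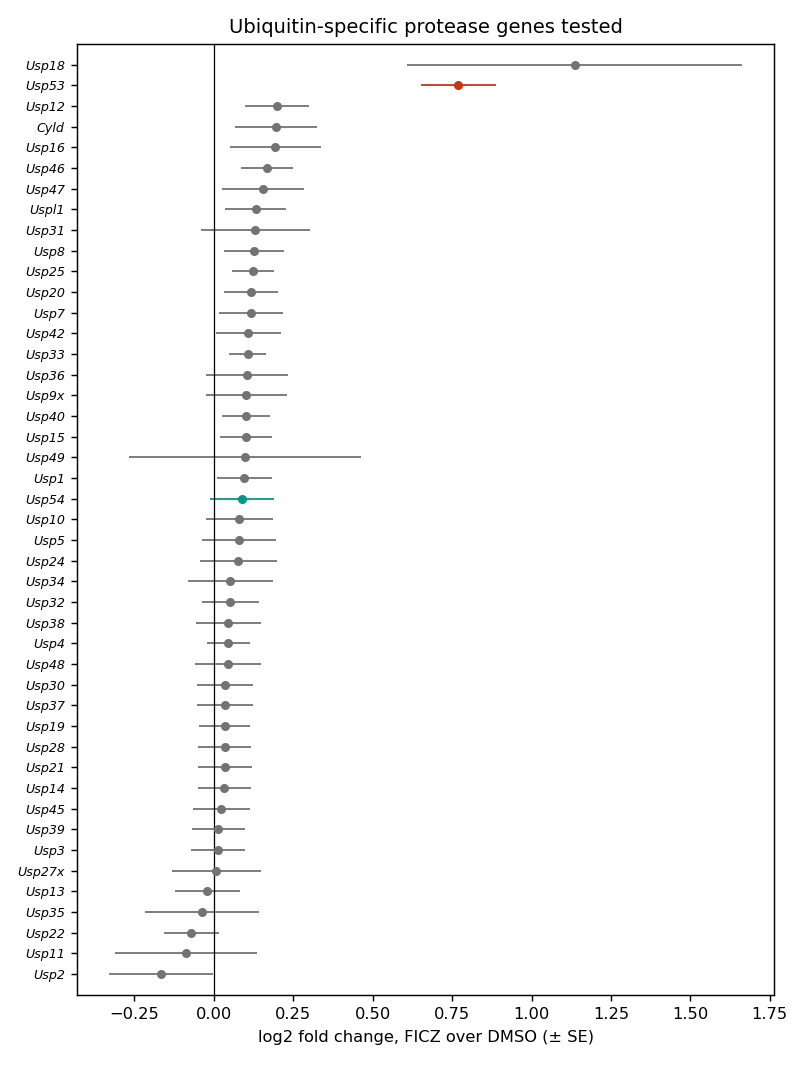
Log2 difference, FICZ minus DMSO, of the 45 tested USP genes from the edgeR fit, in order of size. Points are the fitted values and bars ± 1 SE. Usp53 (red, 0.77) has a short bar, Usp18 (1.14) above it a long one, and Usp54 (green, 0.09) lies among the other genes.

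Enzymes that build or cut K63-linked chains, the chains on which USP53 and USP54 act, were taken as a list of 12, all tested. None passed at an adjusted or an unadjusted p of 0.05 by edgeR without a block, none passed the adjusted p by DESeq2, and 1 (Cyld, 8.33% of the list against 4.65% of all genes) was at that unadjusted p with the replicate block. The median log2 difference was 0.04, and the values ran from -0.09 for Stambp, a K63-directed deubiquitinase chosen after its value was seen, to 0.19 for Cyld. Ube2n, the conjugating enzyme that forms these chains, was at 73.5 ± 3.25 CPM in DMSO against 74.4 ± 6.71 CPM in FICZ, and its partner Ube2v1 at 40.0 ± 6.82 and 43.6 ± 3.32 CPM. The ligases Rnf168 and Traf2 had log2 differences of 0.11 and -0.01.

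Cyld, a deubiquitinase for K63-linked and linear chains, was in both lists. It had 50.1, 59.9, 57.3, 44.4 and 47.2 CPM in DMSO replicates 1 to 5 and 56.5, 69.6, 70.2, 46.8 and 53.3 CPM in FICZ replicates 1 to 5. The groups overlapped, while Cyld was higher with FICZ in all 5 pairs, as were 4.32% of all genes tested. Its log2 difference of 0.19 (SE 0.13) had an edgeR adjusted p of 0.999, and 0.929 with the block, where its unadjusted p was 0.0146. Usp12, the other USP gene at that unadjusted p with the block, was at 54.0 ± 7.53 CPM in DMSO and 62.0 ± 4.23 CPM in FICZ, with an adjusted p of 0.929 by edgeR with the block.

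The scaffolds that lie with ZO-1 under the junction were listed as a group. Of 19 tested besides Tjp1, 0 passed at an adjusted p of 0.05 by edgeR or DESeq2, and 2 (10.5%) were at an unadjusted p of 0.05, both lower in FICZ, against 3.49% of all genes in that direction. The median log2 difference was -0.0033.

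The scaffolds with the highest level per length were Amotl2, Amotl1 and Amot, of the angiomotin family, and Mpdz, a PDZ-domain scaffold. Their log2 differences were 0.05, 0.01, -0.13 and 0.13. Amot was lower with FICZ in all 5 pairs, at 123 ± 11.6 CPM in DMSO and 113 ± 13.7 CPM in FICZ, with an edgeR adjusted p of 0.999, and 2.81% of all genes tested were lower in all 5 pairs. The scaffolds at the unadjusted p were Tjp3, the gene of ZO-3, with a log2 difference of -1.11, and Cgn, the gene of cingulin, with -0.89. Both were scarce, with 14 to 98 and 15 to 95 counts. Without DMSO replicate 5 their log2 differences were -0.59 and -0.56. In that fit 0 scaffolds were at the unadjusted p, and the share over all genes was not taken. Cgn was lower with FICZ in all 5 pairs, at 0.604-fold, 0.763-fold, 0.561-fold, 0.551-fold and 0.474-fold in pairs 1 to 5. With the replicate block Cgn and Amot were the 2 scaffolds at an unadjusted p of 0.05 (0.0034 and 0.0478), against 4.65% of all genes, with adjusted p of 0.685 and 0.929 by edgeR.

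The membrane proteins of tight junctions were for the most part scarce in these ASPCs. Of 33 listed genes, 16 were tested. At an adjusted p of 0.05, 0 of them passed by edgeR or DESeq2. At an unadjusted p of 0.05, 6 (37.5%) were lower in FICZ and 0 higher, while over all genes 3.49% were lower and 1.33% higher. DESeq2 gave 7 at an unadjusted p of 0.05, counted in either direction, against 4.89% of the 19292 genes to which it gave a p. The 6 were Lsr, Cldn3, Ocln, Marveld2, Cldn2 and Cldn1, and the median log2 difference of the list was -0.53. With the replicate block 2 (Ocln and Cldn2, 12.5% of the list) were at an unadjusted p of 0.05, against 4.65% of all genes. Without DMSO replicate 5 it was 1 (Lsr), with a median of -0.16, and the share over all genes was not taken for that fit.

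Lsr, the gene of the tricellular junction protein angulin-1, had 6.42, 1.81, 2.11, 5.90 and 11.7 CPM in DMSO replicates 1 to 5 and 1.99, 2.78, 2.17, 2.14 and 2.56 CPM in FICZ replicates 1 to 5. DMSO replicates 1, 4 and 5 were above every FICZ library and DMSO replicates 2 and 3 were within or below them. Alb had 1921, 713, 756, 1740 and 4782 CPM in DMSO and 1085, 923, 1017, 682 and 942 CPM in FICZ, with the same 3 DMSO libraries highest. The log2 difference of Lsr was -1.26 (SE 0.44), -0.79 without DMSO replicate 5 and -0.23 with Alb as a covariate, and its edgeR adjusted p was 0.999.

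The claudin genes Cldn3, Cldn2 and Cldn1, which form the strands of the junction, had log2 differences of -1.20, -1.13 and -1.14, and each had its highest level in DMSO replicate 5. Ocln, the gene of occludin, had 12 to 40 counts in DMSO and 7 to 14 in FICZ, and Marveld2, the gene of tricellulin, 10 to 21 and 4 to 11. Of the 16 tested genes 10 were highest in DMSO replicate 5, as were 28.3% of all genes tested. All 14 hepatocyte genes were at an unadjusted p of 0.05, lower in FICZ, against 3.49% of all genes in that direction. Their median log2 difference was -1.13, with 0 past the adjusted threshold of edgeR. With Alb as a covariate 0 of the membrane proteins were at the unadjusted p and their median was -0.06, with no share over all genes taken for that fit. The mesothelial or epithelial markers had a summed level of 72.3 to 137 CPM in DMSO and 75.7 to 92.2 CPM in FICZ. Their sum was also highest in DMSO replicate 5, and 3 of 8 tested were lower at the unadjusted p, against 3.49% of all genes. In that list Epcam had 0 to 13 counts, Krt18 128 to 1127 and Krt8 195 to 1297. Mean CPM in DMSO and FICZ was 12.1 and 5.43 for Krt8, 9.59 and 4.07 for Krt18, and 1.20 and 0.594 for Cdh1. It was 68.1 and 66.2 for Wt1, 1.82 and 2.26 for Upk3b, and 1.17 and 1.19 for Lrrn4. For Krt19 it was 0.981 and 0.775, for Msln 0.501 and 0.448, and for Epcam 0.132 and 0.100. The part of these markers in the junction values was not tested.

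The abundant genes of this list were Jam2, Cldn12, Jam3 and Cldn15. Jam2 and Jam3, which encode junctional adhesion molecules, were at 265 ± 15.6 and 47.5 ± 3.53 CPM in DMSO and at 256 ± 21.9 and 48.4 ± 2.84 CPM in FICZ. Cldn12 was at 64.6 ± 7.25 and 69.6 ± 11.8 CPM, and Cldn15 at 32.6 ± 4.27 and 28.4 ± 6.22 CPM. Their log2 differences of -0.05, 0.11, 0.03 and -0.20 each had an edgeR adjusted p of 0.999.

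**Figure D3:**
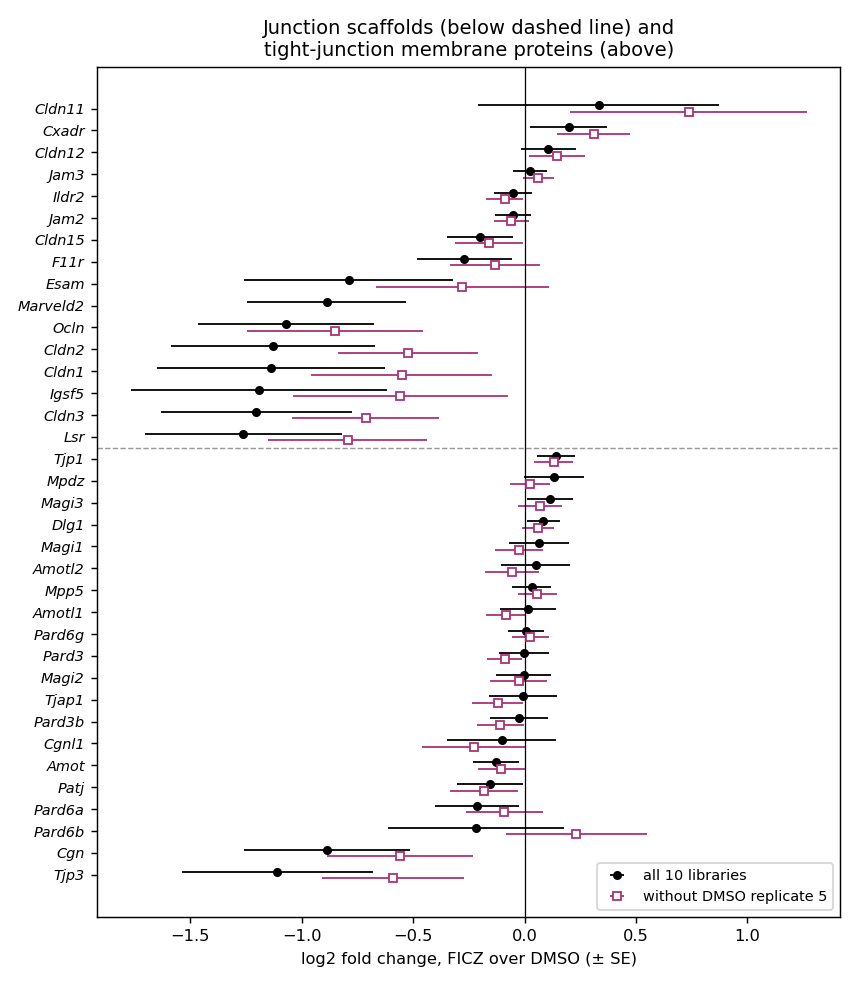
Log2 difference, FICZ minus DMSO, of 20 junction scaffolds (below the dashed line, Tjp1 included) and 16 tight junction membrane proteins (above it). Black points with ± 1 SE bars are fits of all 10 libraries and open squares are fits without DMSO replicate 5, in which Marveld2 was under the filter on low counts and has no value. Tjp1 lies near 0 in both fits, and Lsr moves from -1.26 to -0.79.

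**Figure D4:**
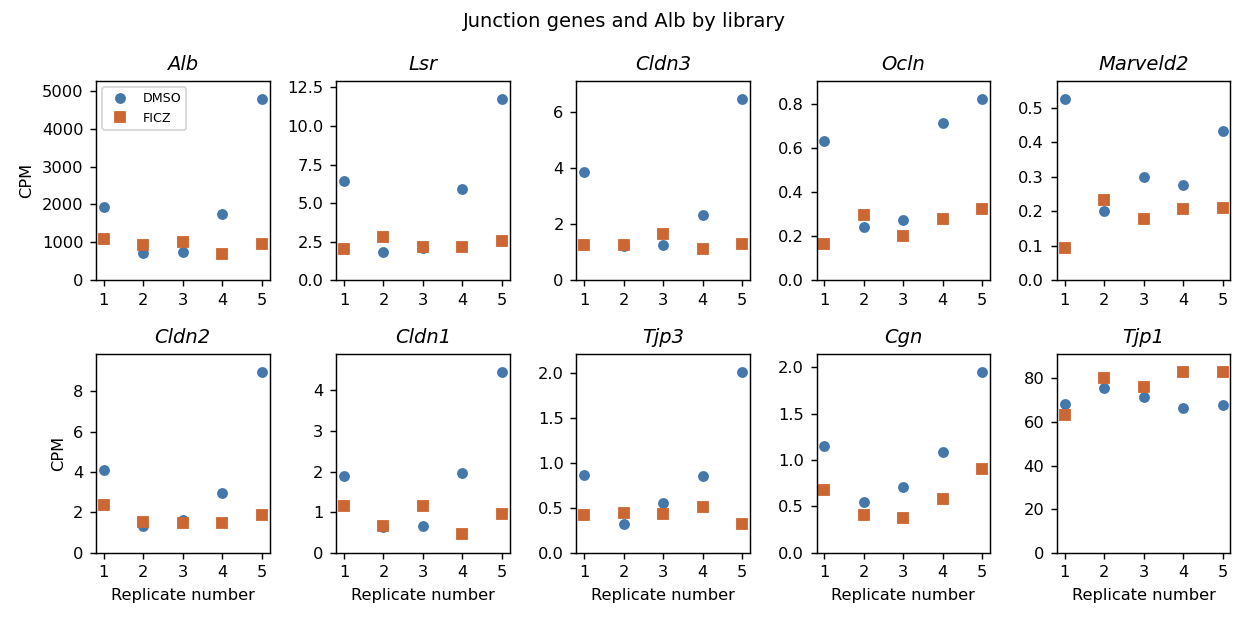
Levels in CPM (axes from 0) of Alb, of the junction genes at an unadjusted p of 0.05 and of Tjp1, by replicate number, with DMSO as circles and FICZ as squares. DMSO replicate 5 is the highest library for Alb (4782 CPM) and for each junction gene shown except Marveld2 and Tjp1.

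Other partners of ZO-1 and genes of the adherens junction gave 20 tested genes. None passed at an adjusted or an unadjusted p of 0.05 by edgeR without a block, none passed the adjusted p by DESeq2, and 1 (Shroom2, an actin-binding partner of ZO-1) was at an unadjusted p of 0.05 with the replicate block, 5% of the list against 4.65% of all genes. The median log2 difference was 0.04, from -0.08 for Nectin1 to 0.24 for Shroom2, both named after their values were seen. Gja1, the gene of connexin 43, was at 89.8 ± 11.1 CPM in DMSO against 92.2 ± 3.42 CPM in FICZ, a log2 difference of 0.04. Ctnnb1, the gene of beta-catenin, was the most abundant per length, at 961 ± 72.1 and 957 ± 72.1 CPM. The log2 differences of Ctnnb1, Ybx3, Actn4 and Cttn were -0.01, 0.06, 0.04 and 0.06.

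The genes next to Usp53 on chromosome 3 were read from the same table. On the side of the lower coordinates, 1810037I17Rik lies 5.31 kb away and had a log2 difference of 0.05, and 4933405D12Rik, 7.38 kb away, was under the filter with 0 to 5 counts. Fabp2, an intestinal fatty acid-binding protein gene 32.0 kb away, had a log2 difference of -1.06 with an edgeR adjusted p of 0.999, and its highest count, 454, was in DMSO replicate 5. Without that library its log2 difference was -0.48, and with Alb as a covariate it was -0.04. On the other side Myoz2, 21.7 kb away, was under the filter with 0 to 12 counts, and Synpo2 and Sec24d, 92.0 and 282.9 kb away, had log2 differences of 0.02 and 0.07. None of the 4 tested neighbours passed at an adjusted p of 0.05 by edgeR, and 1 (Fabp2) was at an unadjusted p of 0.05, as were 4.82% of all genes.

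The genes most like Usp53 were ranked by Pearson's r over the 10 libraries, as a description in which all points share the group difference and the library. On log2 CPM they were Adcy7 (r = 0.947), Antxr2 (0.945), Yap1 (0.924), Grsf1 (0.905) and Hspa4l (0.896), and Usp54 and Tjp1 had r = 0.449 and 0.639. Of these, Adcy7 had the smallest unadjusted p, at 133 ± 10.8 CPM in DMSO against 168 ± 9.15 CPM in FICZ, a log2 difference of 0.34 with an edgeR adjusted p of 0.979. After the group means were taken away, the most alike were Gen1 (0.935), Wnt2b (0.932), Npr3 (0.924), Eri1 (0.913) and Fam20b (0.910), and Usp54 and Tjp1 had r = 0.476 and 0.494. The 2 rankings share no gene among their first 5.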

How the data were processed

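Bulk RNA sequencing of cultured ASPCs was analysed, 5 libraries with DMSO and 5 with FICZ. The authors deposited whole-number counts per gene symbol, without normalization. They aligned reads to mm10 with STAR 2.7.7, per the submitters' processing notes, and passed counts to DESeq2. The counting program, annotation and strand setting are not given in the sources used here. Of the symbols 96.5% were found in GENCODE M21 (GRCm38), which gave coordinates and exon lengths.

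Counts were tested with the quasi-likelihood test of edgeR 4.0.16 (R 4.3.3) with TMM factors, robust dispersions and the filter by expression, which left 14251 genes, and p-values were adjusted by Benjamini-Hochberg over all of them, with a threshold of 0.05. DESeq2 1.42.0, limma 3.58.1 (voom), other scalings and filters, Alb as a covariate, and leaving out each library were alternatives. CPM were TMM-scaled, and log2 CPM used a prior count of 2. Intervals cover these libraries only. Libraries of 1 group differed by more than sampling noise in all 20 pairs (chi-square per degree of freedom 16.4 to 285). The procedure was tested on simulated counts with the same dispersion for every gene and no replicate effect. That test does not cover the pairing or the hepatocyte transcripts of these libraries.

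Both groups carry replicate numbers 1 to 5 in the labels. Deviations from the group means correlated across genes by 0.154 to 0.317 in same-numbered libraries and by a mean of -0.06 in others, so the numbers were taken to pair the samples, and fits with the replicate number as a block were run as well.

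The members, gene lists and tests were chosen with earlier results of these data known. Beside the members, the genes named were Tjp3, Lsr, Marveld2, Ocln, Gja1 and Cyld, the 4 genes with the highest RPKM in each list, those of a list at an unadjusted p of 0.05 (at most 6), the 3 nearest genes on each side of Usp53, the 5 most like it on each scale, 4 AHR targets, and Alb. Of the scaffold list, 1 gene is not reported here and was left out of its counts.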

Additional observations from a re-analysis of the deposited data

Results flagged for a closer look

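In 13 of 112 groups of 5 libraries, over 56 genes, 1 library stood apart by Dixon's ratio. That is the gap of the extreme library over the range of its group. Independent groups would give about 1 in 20, or 5.6. These groups share libraries, so 13 cannot be weighed against that number. Usp53, Usp54 and Tjp1 were not among the genes of those 13 groups. DMSO replicate 5, the library with the most Alb, was the low library for Usp5 (ratio 0.882), Ube2v1 (0.737), Traf2 (0.917) and Grsf1 (0.715). FICZ replicate 1, which had the lowest Usp54 and Tjp1 of all libraries, was also the low one of its group for Amotl1 (0.762), Amot (0.867) and Adcy7 (0.770). Amot was low in DMSO replicate 1 too (0.829). The other low libraries were FICZ replicate 3 for Rnf168 (0.7101) and Cttn (0.745), FICZ replicate 5 for Ybx3 (0.886) and DMSO replicate 4 for Ahrr (0.857), and Usp1 was high in FICZ replicate 2 (0.792).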

How the results depend on the processing

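The log2 differences of Usp53, Usp54 and Tjp1 kept their direction under every alternative run. The adjusted p of Usp53 passed 0.05 by edgeR with the replicate block (log2 difference 0.77, adjusted p 0.0267). It also passed by DESeq2 (log2 difference 0.76, adjusted p 3.33e-05) and by DESeq2 with the block (log2 difference 0.77, adjusted p 1.93e-11). With Alb and the block in edgeR it passed too (log2 difference 0.73, adjusted p 0.00276), and elsewhere it stayed above 0.05. The adjusted p of Usp54 and Tjp1 missed it in every fit. Leaving out each library gave 0.70 to 0.83 for Usp53, with an edgeR adjusted p of 0.109 to 0.438. Depth limits the scarce junction genes, since Ocln and Marveld2 had at most 40 and 21 counts in any library.

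Against 3 genes past the threshold by edgeR, the replicate block gave 8, DESeq2 16, DESeq2 with the block 26 and Alb with the block 16, and 1 to 4 passed without 1 library. The fits without DMSO replicates 1 or 2, or without FICZ replicates 1, 2 or 3, each gave 1. The cause was not tested.

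At an unadjusted p of 0.05, the USP family gave 0 genes by edgeR, 2 with the block, 1 by DESeq2 with the block, 2 with Alb, 2 with Alb and the block, and 0 to 2 without 1 library. K63 enzymes gave 1 instead of 0 with the block in each of the 3 fits that had it. Scaffolds gave 2 by edgeR, 1 by DESeq2 with the block, 1 with Alb and the block, 0 with Alb, 0 by voom and 0 to 2 without 1 library, with 1 in the fits without DMSO replicates 1 or 4 or FICZ replicates 2 to 5. Membrane proteins gave 6 by edgeR, 2 with the block, 3 by DESeq2 with the block, 2 with Alb and the block, 0 with Alb, 1 by voom and 1 to 8 without 1 library. Partners of ZO-1 gave 1 instead of 0 with the block and with Alb and the block. The median log2 difference of the partners of ZO-1 was 0.04 by edgeR, -0.04 with Alb and -0.014 without DMSO replicate 5, and that of the scaffolds, near 0 by edgeR, was -0.13 with Alb and -0.084 without DMSO replicate 5. No gene of the lists passed an adjusted p of 0.05 in any of these fits. The share of all genes at the unadjusted p was taken only for edgeR without and with the block and for DESeq2 without a block. The counts of the other fits have no share to be read against. The pairing of the libraries moved no other call on the members.

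Per longest transcript the levels were 3.53 and 6.02 RPKM for Usp53, 3.05 and 3.24 for Usp54 and 9.92 and 10.9 for Tjp1, in DMSO and FICZ. Of the 5 genes most like Usp53 on log2 CPM, 2 stayed among the first 5 without DMSO replicate 5 and 3 by Spearman's rho, and of the 5 by deviations 1 stayed without DMSO replicate 5.

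Some genes near 0 changed sign. Fabp2, which was not near 0 at -1.06 by edgeR without a block, did so with Alb and the block. With Alb as a covariate the log2 differences became Usp5 -0.045, Usp39 -0.025, Ube2v1 -0.0054, Amotl2 -0.15, Amotl1 -0.13, Mpdz -0.039, Ctnnb1 0.058, Ybx3 -0.071, Actn4 -0.16, Cttn -0.14, Synpo2 -0.11 and Npr3 -0.18. With Alb and the block they became Usp5 -0.042, Usp8 -0.021, Ube2v1 -0.0069, Amotl2 -0.070, Amotl1 -0.12, Mpdz -0.020, Ctnnb1 0.010, Actn4 -0.088, Cttn -0.18, Fabp2 0.059, Synpo2 -0.17 and Npr3 -0.081. With library size only they were Usp39 -0.0012, Ube2n -0.00011 and Npr3 -0.0090, and with upper-quartile factors Usp39 -0.0047, Ube2n -0.0030, Amotl1 -0.0019, Synpo2 -0.0022 and Npr3 -0.014. Traf2 was 0.0016 by DESeq2 with the block, 0.0060 with the block and 0.0098 by voom. Npr3 was -0.00038 by DESeq2, -0.0019 with at least 10 counts in every library, -0.0023 with DESeq2 size factors and -0.0045 without a filter. Without 1 library the ranges of genes that crossed 0 were Usp5 -0.024 to 0.12, Usp39 -0.021 to 0.051, Ube2n -0.028 to 0.048, Traf2 -0.12 to 0.018, Amotl2 -0.058 to 0.15, Amotl1 -0.084 to 0.078, Jam3 -0.021 to 0.061, Ctnnb1 -0.063 to 0.038, Ybx3 -0.044 to 0.14, Actn4 -0.11 to 0.14, Cttn -0.084 to 0.13, 1810037I17Rik -0.024 to 0.12, Synpo2 -0.11 to 0.16 and Npr3 -0.12 to 0.15.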
